A study of Mus musculus with 10 samples.

Results

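The comparison described here sets tail buds with induced Lin28a against wild-type tail buds in E12.5 mouse embryos. Its members are 7 of the 10 RNA-sequencing libraries of the study, chosen by group label alone, and all genes are described across them. The induced group (n = 4, replicates 2 to 5) carried TRE-Lin28a, RLSL-rtTA and FoxD1-Cre and received Dox (doxycycline). The wild-type group (n = 3, replicates 1 to 3) is labelled without a transgene and without doxycycline. A further group (n = 3, replicates 6 to 8) carried TRE-Lin28a and RLSL-rtTA without Cre and also received Dox, and its values are given beside the main comparison. All libraries came from microdissected tail bud. The study concerns the Lin28/let-7 pathway in the elongation of the caudal body axis.

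In the induced animals Cre removes a stop cassette in front of rtTA, a transactivator that binds the TRE promoter when doxycycline is present, so that Lin28a is switched on in cells of the Foxd1-Cre lineage. Bulk tissue also holds cells outside that lineage. Against wild type, Lin28a induction, 3 transgenes, doxycycline and any batch change together, and their parts in a difference cannot be told apart by this comparison. The no-Cre group shares 2 of the transgenes and doxycycline with the induced group, and differs from it by Cre, by Lin28a induction and by whatever else the groups do not share. The labels name no litter, strain, date or batch, and nothing in them says that the libraries of a group came from separate embryos, so that p-values measure only the spread between these samples.

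LIN28A is an RNA-binding protein that blocks maturation of let-7 microRNA precursors. Mature let-7 pairs through its seed, bases 2 to 8, with sites in the 3′ UTRs of target mRNAs and lowers their output, so that targets such as Trim71, Arid3b and Igf2bp1 are known to be higher where Lin28 is active and let-7 is low. The tail bud holds the progenitors from which neural tube and presomitic mesoderm of the caudal body are laid down, and Wnt, FGF and posterior Hox genes are active there. The microRNAs themselves were not measured in these libraries.

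The sequences that the pathway acts through are shown first, because the target genes below are read against them. The let-7 family of RefSeq (GRCm38.p6) has 11 loci with 9 distinct mature 5p sequences, and all of them share 1 seed. In 6 of these, shown 5′ to 3′, the seed is in capitals.
mmu-let-7a-5p: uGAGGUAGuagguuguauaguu
mmu-let-7b-5p: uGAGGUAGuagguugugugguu
mmu-let-7d-5p: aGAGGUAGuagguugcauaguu
mmu-let-7e-5p: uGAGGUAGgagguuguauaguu
mmu-let-7g-5p: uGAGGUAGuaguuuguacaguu
mmu-miR-98-5p: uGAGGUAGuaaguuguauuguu

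Seed matches were sought as CTACCTC, on the transcript strand only, in the annotated 3′ UTRs of GENCODE M21 (GRCm38). The sites below belong to the 4 let-7 targets that the results turn on and to Hmga2, a much-studied target. The match is in capitals and each stretch is read 5′ to 3′ on the minus strand.
Trim71 site 1, chr9:114512470-114512498: gtacaacattgcctaagtcCTACCTCagc
Trim71 site 2, chr9:114512374-114512402: gtgaagtgataatttctatCTACCTCaac
Trim71 site 3, chr9:114509045-114509073: tttgtttagtatggattttCTACCTCaat
Trim71 site 4, chr9:114509019-114509047: aattttggcaaaaagttgtCTACCTCacg
Fignl2 site 1, chr15:101050487-101050515: cagcccccggctgcagcacCTACCTCacg
Fignl2 site 2, chr15:101050325-101050353: tctcggttgtaacccatttCTACCTCatt
Fignl2 site 3, chr15:101050250-101050278: ttctgcagttgtggcctgtCTACCTCaga
Arid3b site 1, chr9:57790359-57790387: tttatatttcaataaagctCTACCTCttc
Igf2bp1 site 2 of 4, chr11:95959355-95959383: gaaccagcagtgctattaaCTACCTCagc
Hmga2 site 1 of 4, chr10:120364222-120364250: gggcgccgacattcaatttCTACCTCagc
A match is a description of letters and not evidence that the site is used. Of 14222 tested genes with an annotated 3′ UTR, 10.5% held 1 match and 1.62% held 2 or more.

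Library totals ran from 21762668 to 39517946 counts, with 29898412 to 39517946 in the induced group and 21762668 to 25316537 in wild type. On the first principal component, with 59.5% of the variance, the wild-type libraries lay at 58.7 to 81.4 and all 7 transgenic libraries at -33.0 to -26.1. The second component, with 9.87%, set wild-type replicate 2 at -43.9 apart from the other wild-type libraries at 24.7 and 28.2. In that library several genes of the progenitor zone were low, such as T (Brachyury) at 127 CPM (counts per 1000000 of a library's counts, scaled by the TMM method) against 307 and 334, and values without it are given beside results that it moves. Mitochondrially encoded transcripts took 0.562% of counts in the induced group, 0.574% in the no-Cre group and 2.19% in wild type. These shares leave out what was not counted, since 5 of 13 listed mitochondrial genes had 0 counts in all 7 induced and wild-type libraries. Pseudogenes took 0.127%, 0.131% and 0.313%. Xist and Y-linked transcripts marked 1 induced library (replicate 5) and 1 no-Cre library (replicate 7) as female, and every other library, wild type included, as male.

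Lin28a itself was the check of the labels. It stood at 664, 605, 750 and 731 CPM in the induced libraries, at 6.16, 5.72 and 4.45 CPM in wild type and at 5.03, 4.53 and 2.64 CPM in the no-Cre libraries. The induced libraries were far above all others, and the remaining groups overlapped. Its mean of 688 ± 66.3 CPM (SD, n = 4) was 126-fold that of wild type, 5.44 ± 0.887 CPM (n = 3), with a log2 fold change of 6.97 ± 0.21 (SE) and an adjusted p of 7.81e-09 (edgeR quasi-likelihood test). The gene lies on chromosome 4 at 134003330-134018841 (GRCm38). Counts do not separate transgene-derived from endogenous Lin28a. Its paralog Lin28b, which also blocks let-7, stood at 30.7 to 42.6 CPM in the induced group and 17.9 to 23.7 CPM in wild type and rose by 0.72 ± 0.14 (adjusted p 0.00153). The no-Cre libraries held 25.6 to 35.1 CPM of it, 0.52 above wild type. Foxd1, whose promoter the Cre allele is named for, stood at 4.23 to 7.6 CPM in the induced group, 6.32 to 7.53 CPM in wild type and 7.89 to 10.2 CPM in the no-Cre group, and its difference from wild type, -0.34, did not pass (adjusted p 0.159). Without induced replicate 5 the difference of Foxd1 was -0.58 (adjusted p 0.00797).

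Nearly as many genes rose as fell, and most differences were small. Of 16340 genes tested against wild type, 3969 were higher (24.3%) and 4081 lower (25.0%) at an adjusted p under 0.05, 49.3% in all. The median absolute log2 fold change was 0.31 over all genes and 0.49 over the called ones. At least 2-fold changes among the called genes numbered 722 upward (4.42%) and 1154 downward (7.06%), at least 4-fold ones 204 (1.25%) and 314 (1.92%), and at least 8-fold ones 69 and 131. The 4 induced and 3 wild-type libraries did not overlap for 8052 genes (49.3%). The share called rose with level, from 26.5% of the fifth of genes with the lowest mean CPM to 61.3% of the fifth with the highest.

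A difference of nearly the same extent separated the no-Cre libraries from the same wild-type libraries: 3435 genes were higher (21.0%) and 3503 lower (21.4%), 42.5% in all. The comparison of induced with no-Cre libraries called 288 genes higher (1.76%) and 188 lower (1.15%), 2.91% in all. The absolute log2 fold change of that contrast had a median of 0.12 over all genes. Of the 8050 genes called against wild type, 368 were also called against no-Cre in either direction and 7682 (95.4%) were not. These comparisons share libraries, so that their calls are set side by side and not counted as independent. The counts against no-Cre depended on single libraries: leaving out any no-Cre library gave 73 to 91 higher and 31 to 49 lower, leaving out an induced replicate gave 115 to 194 and 59 to 122, and leaving out wild-type replicate 2 gave 776 and 706. The counts against wild type ran from 3490 to 4111 higher and 3547 to 4100 lower in the same fits. The plot of fold change against level shows the 3 comparisons on a common scale.

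**Figure D1:**
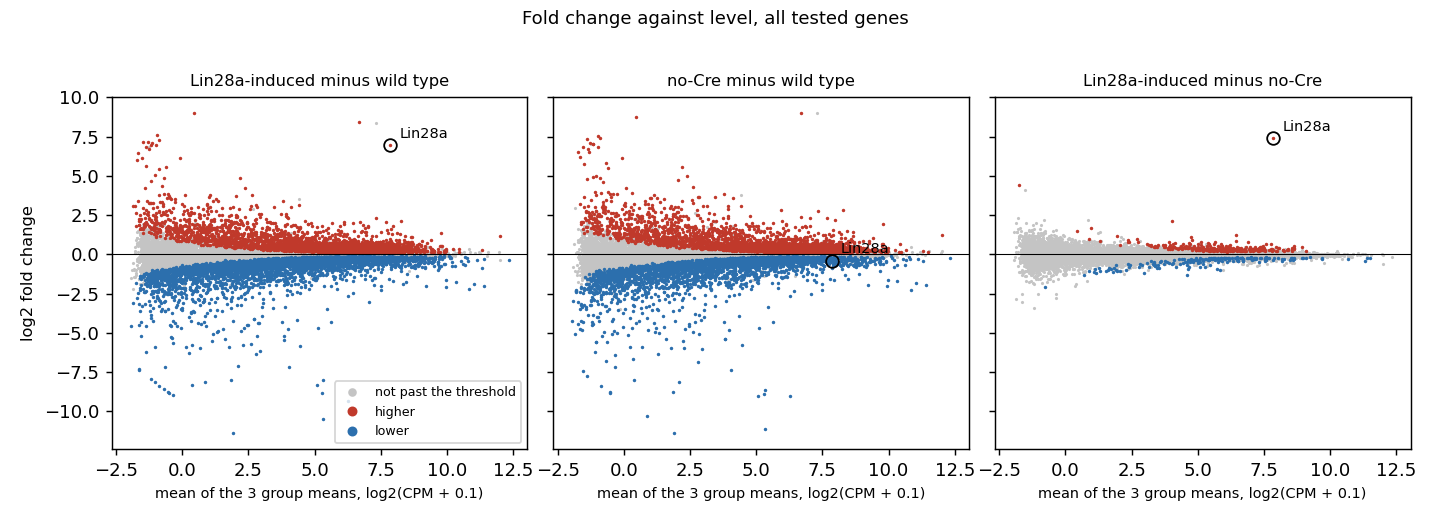
Log2 fold change of each of the 16340 tested genes (y axis) against its mean level (x axis, log2 CPM with a small offset) for induced minus wild type, no-Cre minus wild type and induced minus no-Cre; red points were higher and blue points lower at an adjusted p under 0.05, and grey points did not pass. The first and middle panels are wide on both sides (8050 and 6938 genes called) and the right panel is narrow (476 called), with Lin28a circled at 6.97, -0.41 and 7.38.

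Genes of Lin28 and microRNA processing were more often higher than lower. This list and those below were chosen with earlier results of these data known. Of 18 tested, Lin28a and Lin28b among them, 10 rose and 2 fell against wild type (median 0.21, against -0.02 over all genes). The rise of Lin28a is the induction itself. Over all genes 24.3% were higher and 25.0% lower. In no-Cre against wild type 6 of the 18 were higher and 1 lower (median 0.13), beside 21.0% and 21.4% of all genes. Against no-Cre 4 were higher, Lin28a among them, and 1 lower (median 0.08), beside 1.76% and 1.15% of all genes. Dicer1, the RNase that cuts precursor hairpins, stood at 462, 516, 520 and 507 CPM in the induced group, 343, 256 and 303 CPM in wild type and 377, 376 and 400 CPM in no-Cre. All induced libraries lay above every control library. It rose by 0.74 (adjusted p 1.08e-05) against wild type and by 0.38 (adjusted p 0.0249) against no-Cre. Drosha, the nuclear RNase of the pathway, rose by 0.65, and Ago2, the slicing Argonaute, by 0.61. Neither was called higher than no-Cre. Tarbp2, a Dicer partner, rose by 0.28 and was 0.40 above no-Cre. Dis3l2, the exonuclease that degrades uridylated let-7 precursors, fell by 0.34. Zcchc11 and Zcchc6, the uridylating enzymes that Lin28a recruits, gave 0.14 and -0.01, and Xpo5, the exporter of precursors, 0.14, and these did not pass. Without induced replicate 2 the adjusted p of Zcchc11 was 0.0209, and without wild-type replicate 1 that of Xpo5 was 0.0248.

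Among 44 known let-7 targets 25 rose, 9 fell and 10 did not pass against wild type, where 24.3% of all genes were higher and 25.0% lower, with a median log2 fold change of 0.23. In the no-Cre libraries 19 of them were higher and 7 lower than wild type (median 0.18), beside 21.0% and 21.4% of all genes. Against no-Cre 11 of the 44 were higher and the rest did not pass, and all 11 were also higher than wild type, where 1.41% of all genes were higher against both control groups. Those 11 included Trim71, Fignl2, Arid3b, Igf2bp1 and E2f5. Another, Igdcc3, had an adjusted p of 0.0459 against wild type and kept that call in 2 of the 10 fits without a library. Against no-Cre, Dna2, Cdc34, Bach1 and Tgfbr1 lay near the threshold (adjusted p 0.0439, 0.039, 0.0366 and 0.0313). Calls against no-Cre were not followed gene by gene in fits without a library. Over all genes 288 were higher than no-Cre, and 73 to 91 without a no-Cre library.

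Trim71, a ubiquitin ligase and translational repressor of early development, stood at 132, 145, 162 and 180 CPM in the induced libraries, 44.6, 38 and 33.7 CPM in wild type and 74.5, 67.2 and 58.8 CPM in no-Cre. The 3 groups did not overlap, with no-Cre between the others. Trim71 (chromosome 9, 114507133-114564369) rose 4-fold, by 2.0 ± 0.13 (SE, adjusted p 6.68e-07), of which no-Cre against wild type showed 0.79 and induced against no-Cre 1.21. Its 4 seed matches are those printed above.

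Fignl2, an AAA-ATPase of the fidgetin family, stood at 162, 181, 202 and 217 CPM in the induced group, 59.4, 58.8 and 59.1 CPM in wild type and 122, 113 and 98.8 CPM in no-Cre. It rose by 1.69 ± 0.10, with 0.92 in no-Cre against wild type and 0.77 over no-Cre. Arid3b, an AT-rich DNA-binding protein, ranged from 307 to 342 CPM in the induced group, 106 to 134 CPM in wild type and 178 to 225 CPM in no-Cre. It rose by 1.38 ± 0.10, with 0.73 and 0.66 for the other comparisons. For both genes, as for Trim71, the no-Cre libraries lay between the others without overlap.

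Igf2bp1, an RNA-binding protein of growing embryonic tissue, stood at 551, 645, 670 and 649 CPM in the induced group, 436, 348 and 429 CPM in wild type and 477, 448 and 442 CPM in no-Cre. Here the induced libraries were above both controls, which lay close together. It rose by 0.64 ± 0.08 against wild type and by 0.46 against no-Cre (adjusted p 0.0103), and no-Cre against wild type gave 0.17 (adjusted p 0.132). E2f5, a cell-cycle transcription factor, rose by 0.58 and was 0.35 above no-Cre. Smaller rises against both groups were those of Cdc34, a ubiquitin-conjugating enzyme, at 0.39 and 0.26, Bach1 at 0.33 and 0.24, and Tgfbr1, a TGF-beta receptor, at 0.42 and 0.21.

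Other targets rose against wild type alone. Sall4, a zinc-finger factor of embryonic progenitors, rose by 1.29, with 1.01 in no-Cre against wild type and 0.27 over no-Cre (adjusted p 0.425). Rrm2, a ribonucleotide reductase subunit, rose by 0.81, Plagl2 by 0.64, Mycn by 0.61, Hmga1 by 0.59 and Hic2 by 0.58. Hmga2 stood at 499, 570, 559 and 637 CPM in the induced group, 483, 449 and 461 CPM in wild type and 598, 570 and 578 CPM in no-Cre. Its induced and no-Cre libraries overlapped and both lay above wild type. It rose by 0.29 against wild type and differed from no-Cre by -0.04 (adjusted p 0.851). Ccnd1, cyclin D1, rose by 0.52, and was called in the 3 fits that left out a wild-type library and in none of the 7 that left out another (adjusted p 0.0604 to 0.0906). Its value was 0.28 without wild-type replicate 2.

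The 9 targets that fell were Gdf6, Acvr1c, Fas, Thbs1, Nr6a1, Plag1, Ccnd2, Myc and Map3k1. Gdf6, a BMP-family ligand, and Acvr1c, an activin receptor, each fell by 1.2. Nr6a1, an orphan nuclear receptor of the developing trunk with 8 seed matches in its 3′ UTR, stood at 5.54 to 7.98 CPM in the induced group and 8.22 to 11.8 CPM in wild type and fell by 0.49 (adjusted p 0.0163). Its no-Cre libraries held 5.79 to 6.59 CPM. Fas, a death receptor, fell by 1.44, but gave -0.60 (adjusted p 0.402) without wild-type replicate 2 and lost its call in 5 further fits without a library (adjusted p up to 0.0975). Without wild-type replicate 2, Nr6a1 gave -0.35 (adjusted p 0.0727), Thbs1 -0.57 (adjusted p 0.0581) and Map3k1 -0.14 (adjusted p 0.108), and without wild-type replicate 3 Myc gave -0.22 (adjusted p 0.0656). Map3k1 also lost its call without induced replicate 2, induced replicate 3 or no-Cre replicate 7.

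**Figure D2:**
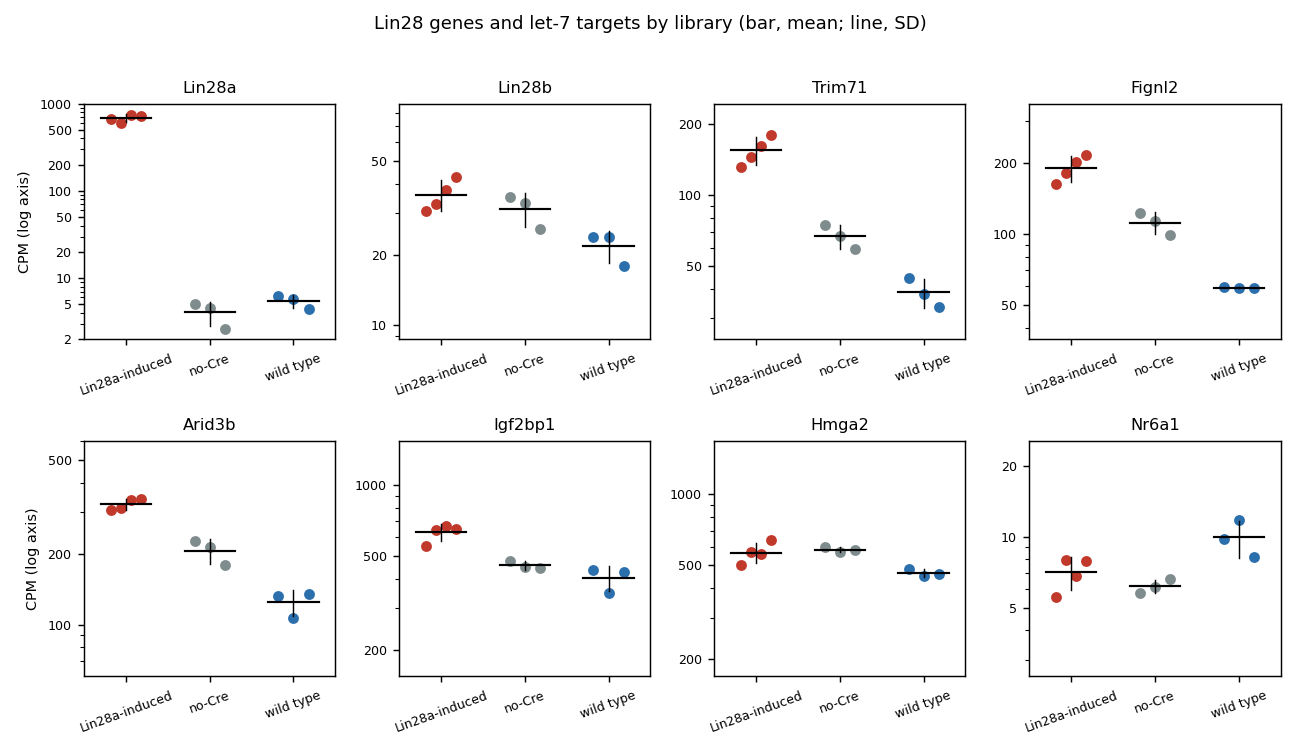
CPM by library (log axis, 1 point per library) of let-7 targets in the induced (n = 4), no-Cre (n = 3) and wild-type (n = 3) groups; bars are means and lines SD. Trim71 climbs from 33.7 to 44.6 CPM in wild type through 58.8 to 74.5 CPM in no-Cre to 132 to 180 CPM in the induced libraries, whereas the Hmga2 values of the induced and no-Cre groups overlap.

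Genes with more seed matches were called higher more often. Genes with no CTACCTC numbered 12500, of which 26.5% were higher and 25.6% lower than wild type and 1.42% were higher against both control groups. Among 1491 genes with 1 match the shares were 29.7%, 21.5% and 2.35%, and among 231 genes with 2 or more they were 38.1%, 18.6% and 6.49%, the last being 6.09% without Lin28a itself, whose own 3′ UTR holds matches. In no-Cre against wild type, 22.9%, 25.9% and 32.0% of the same 3 classes were higher. Genes with matches have longer 3′ UTRs: with UTRs of 3000 bases or more, the share higher than wild type was 32.4% without a match and 32.9% with one, and the share higher against both groups 3.39% and 4.01%. With shorter UTRs these shares were 25.4% and 29.5%, and 1.07% and 2.19%. The part of UTR length in the difference was otherwise not tested.

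Genes past the threshold against both controls numbered 231 upward (1.41%) and 94 downward (0.575%), 1.99% of all genes tested. The 231 make up 5.82% of the genes higher than wild type and 80.2% of those higher than no-Cre, and the 94 make up 2.3% and 50% of the lower ones. Their median log2 fold change against wild type was 0.43 upward and -0.43 downward, with 12 and 15 genes changed at least 2-fold. In no-Cre against wild type, 73 of the 231 were higher, 7 lower and 151 not called. Leaving out a library moved both counts, to 69 to 84 and 14 to 22 without a no-Cre library, to 101 to 171 and 27 to 67 without an induced one, and to 557 and 329 without wild-type replicate 2.

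Beside Lin28a and Eda2r, the clearest rises against both groups were moderate. Gxylt1, a glucoside xylosyltransferase that acts on Notch, ranged from 224 to 243 CPM in the induced group, 135 to 137 CPM in wild type and 159 to 167 CPM in no-Cre, and rose by 0.78. Evc, a ciliary protein of Hedgehog signalling, ranged from 52.8 to 59.8 CPM in the induced group, 34.7 to 38.7 CPM in wild type and 33.6 to 34.3 CPM in no-Cre, and rose by 0.60. In both the induced libraries stood clear of all 6 controls. Atf2, a stress-responsive transcription factor, rose by 0.68 and was 0.49 above no-Cre, and Ifrd1 rose by 0.99 and was 0.66 above it. Uhmk1, a kinase, rose by 0.68, Klhl12, a substrate adaptor of a ubiquitin ligase, by 0.63, Necap1, an endocytic protein, by 0.57 and Atg12, a conjugation protein of autophagy, by 0.48.

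The genes lower against both groups began with Hebp1, a heme-binding protein, and Car3, a carbonic anhydrase. Car3 stood at 27.5, 29.4, 25.4 and 25.5 CPM in the induced group, 82.9, 75.3 and 84 CPM in wild type and 57.8, 45.9 and 53.8 CPM in no-Cre. The 3 groups were separate, with no-Cre between. It fell by 1.58 ± 0.08 (adjusted p 6.03e-09), and by 0.96 against no-Cre. Hebp1 fell by 2.44, of which 0.58 lay between induced and no-Cre. Col14a1, a collagen of fibril surfaces, fell by 0.73 and by 0.94 against no-Cre, which itself did not differ past the threshold from wild type (0.21, adjusted p 0.13). Dapl1 fell by 1.69, Bdh1, a ketone-body dehydrogenase, by 1.36, Igfbpl1 by 1.16 and Srd5a1, a steroid reductase, by 1.13.

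Targets of p53, the transcription factor of the DNA-damage and nucleolar stress response, were among the genes that separated the induced libraries from both control groups. Of 32 tested, 15 rose and 6 fell against wild type (median 0.26), beside 24.3% and 25.0% of all genes. Against no-Cre 15 were higher, beside 1.76% of all genes, and the rest did not pass. Against both groups 10 were higher, beside 1.41% of all genes. In no-Cre against wild type 5 were higher and 12 lower (median -0.07), beside 21.0% and 21.4% of all genes. The difference from no-Cre thus holds in part low values of that group, and its median was 0.31.

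Eda2r, a death-domain receptor induced by p53, stood at 32.1, 31.3, 38 and 33.3 CPM in the induced group, 6.2, 8.11 and 5.74 CPM in wild type and 7.43, 6.67 and 9.09 CPM in no-Cre. Every induced library lay above every control, and the controls overlapped. Eda2r (chromosome X, 97333840-97377216) rose 5.03-fold, by 2.33 ± 0.14 (adjusted p 2.53e-08), and by 2.13 against no-Cre. The female libraries, at 33.3 CPM in the induced group and 6.67 CPM in no-Cre, lay within the range of their groups.

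Cdkn1a, the p21 inhibitor of cyclin-dependent kinases, stood at 38, 33.6, 42.2 and 34.3 CPM in the induced group, 28.1, 26.2 and 23.1 CPM in wild type and 19.1, 16.9 and 14.8 CPM in no-Cre. The groups did not overlap and no-Cre was the lowest. It rose by 0.52 ± 0.10 against wild type and by 1.12 against no-Cre, since no-Cre lay 0.60 below wild type. Ccng1, cyclin G1, gave 0.52 against wild type and 0.87 against no-Cre, and Phlda3, an inhibitor of AKT signalling, 0.49 and 0.90. Zmat3, an RNA-binding p53 target, rose by 0.88 and 0.56, and Aen, an exonuclease of apoptosis, by 0.74 and 0.56. The pro-apoptotic genes Bax and Bak1 rose by 0.33 and 0.26.

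Some p53 targets were above no-Cre alone. Pmaip1 (Noxa) differed from wild type by 0.12 (adjusted p 0.421) and from no-Cre by 0.78, and Trp53inp1 by 0.01 and 0.76. Perp, a desmosomal p53 target that is also a marker of stratified epithelium, stood at 41.7 to 49.5 CPM in the induced group and 106 to 136 CPM in wild type and fell by 1.39, with a value of 0.00 against no-Cre. Among 16 genes of apoptosis outside the p53 list, 5 rose and 4 fell, a share near the 49.3% called over all genes, and 2 fell without induced replicate 2 or 3. Bmi1, a Polycomb protein that represses the Cdkn2a locus, stood at 84.3 to 101 CPM in the induced group, 64.8 to 75.1 CPM in wild type and 61.1 to 61.7 CPM in no-Cre, and rose by 0.42 against wild type and by 0.58 against no-Cre.

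**Figure D3:**
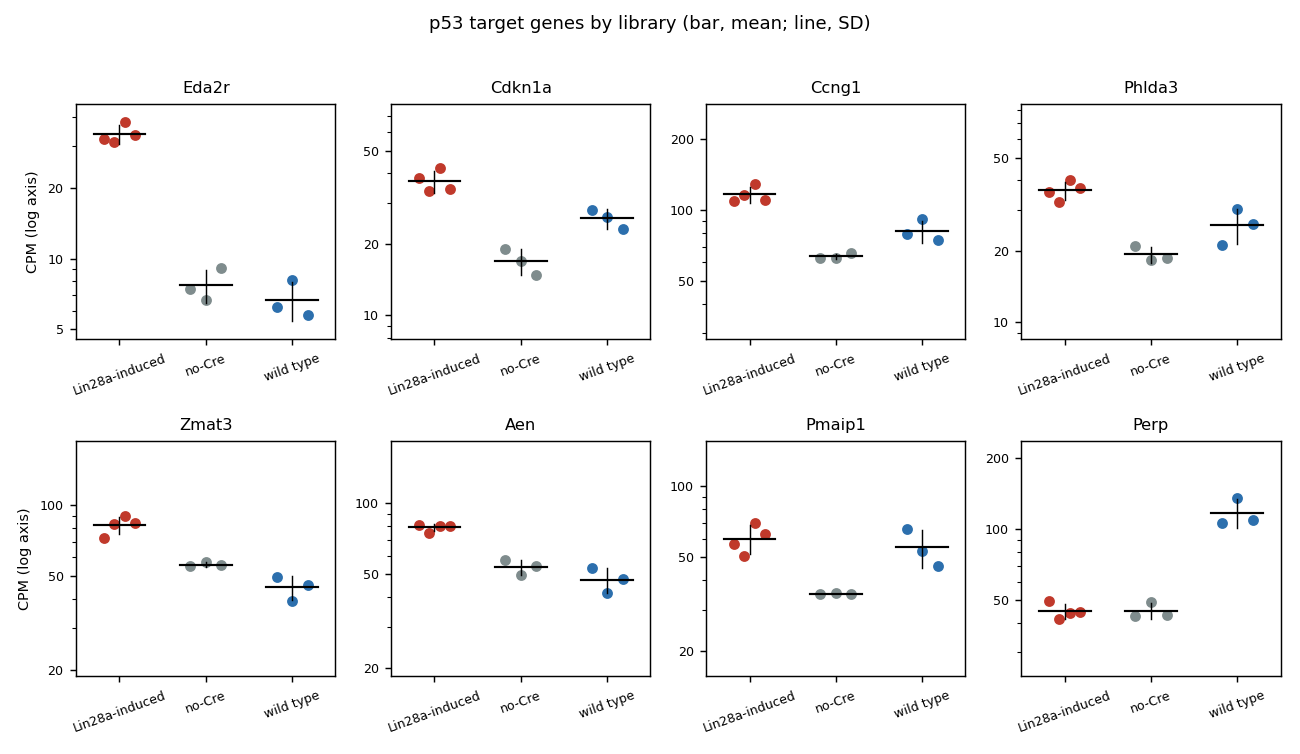
CPM by library (log axis) of 8 p53 targets in the induced, no-Cre and wild-type groups, with means as bars and SD as lines. Eda2r reaches 31.3 to 38 CPM in the induced libraries against 5.74 to 9.09 CPM in the 6 controls, Cdkn1a is lowest in no-Cre, and Perp is highest in the wild-type libraries.

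Hox genes pattern position along the body axis. In paralog groups 1 to 9, expressed from the head and trunk levels downward, 9 of 26 rose and 4 fell, so that 50% were called, close to the 49.3% of all genes. Hoxb1 rose by 1.41, Hoxd1 by 1.27 and Hoxc4 by 0.59, and Hoxb6 fell by 0.57. In groups 10 to 12, expressed at lumbosacral and tail levels, Hoxc10 rose by 0.63 and Hoxc12 by 0.46, and Hoxa10 fell by 0.32 and Hoxd10 by 0.23. Hoxd10 was 0.34 above no-Cre (adjusted p 0.0125), which itself lay 0.57 below wild type. Of the 8 genes 2 were higher than no-Cre, beside 1.76% of all genes. The list median was 0.25 against no-Cre and -0.25 in no-Cre against wild type.

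Of the group 13 genes, known to slow and end axial elongation, Hoxc13 passed. It stood at 212, 214, 225 and 227 CPM in the induced group, 167, 110 and 148 CPM in wild type and 181, 169 and 182 CPM in no-Cre. The induced libraries lay above all 6 others. It rose by 0.63 ± 0.11 (adjusted p 0.000475), and its difference from no-Cre was 0.31 (adjusted p 0.162). The other 3 did not pass: Hoxa13 gave 0.14 (adjusted p 0.087), Hoxb13 0.22 (adjusted p 0.402) and Hoxd13 -0.09 (adjusted p 0.67). Hoxd13 gave -0.30 (adjusted p 0.00174) without wild-type replicate 2, in which it stood at 210 CPM against 355 and 345 CPM, and Hoxa13 gave 0.21 (adjusted p 0.013) without wild-type replicate 3. Of the genes around the trunk-to-tail switch, Gdf11, the ligand that starts it, rose by 0.73, its receptor Acvr2b by 0.46 and the signal transducers Smad3 and Smad2 by 0.39 and 0.29, and Acvr2a, another receptor, fell by 0.35. Of the 7 genes tested 4 rose and 2 fell against wild type (median 0.29), beside 24.3% and 25.0% of all genes. In no-Cre against wild type 4 were also higher and 2 lower (median 0.16), beside 21.0% and 21.4% of all genes. Against no-Cre the median was 0.13. Gdf11 stood at 97.9 CPM in wild-type replicate 2 against 177 and 184 CPM in the other wild-type libraries, and its call held in all 10 fits without a library. Without that library 4 of the 7 genes rose and 1 fell.

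Of 20 tested genes of the caudal progenitor zone, 8 rose and 1 fell (median 0.57, and 0.63 in no-Cre against wild type). The share called, 45%, was no higher than the 49.3% of all genes, of which 24.3% were higher and 25.0% lower. Cdx2, a caudal homeobox factor, stood at 93.5, 77.5, 83.5 and 77.3 CPM in the induced group, 54, 42.5 and 40 CPM in wild type and 70.2 to 79.9 CPM in no-Cre. The transgenic groups overlapped each other and lay above wild type. It rose by 0.86 ± 0.10, and Cdx4 rose by 0.97, Cdx1 by 3.77 from a low level of 0.162 to 0.398 CPM, Wnt5b by 0.97, Cyp26a1, which degrades retinoic acid, by 0.74, and Wnt5a by 0.51. T, at 328 to 460 CPM against 127 to 334 CPM in wild type, gave 0.58 (adjusted p 0.156), Wnt3a 0.43 (adjusted p 0.375) and Fgf8 0.52 (adjusted p 0.338). Hes3 fell by 2.01 from a level of 0.459 to 1.63 CPM. Without wild-type replicate 2, 11 rose and 1 fell, the median was 0.29 and Wnt5a gave 0.31.

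Genes of the presomitic mesoderm and its segmentation clock gave a higher median, 1.13 (1.33 in no-Cre against wild type). Of 20 tested, 11 were higher and 1 lower, beside 24.3% and 25.0% of all genes. Lfng, a glycosyltransferase of the clock, stood at 219, 133, 204 and 108 CPM in the induced group, 65.2, 41.2 and 44.9 CPM in wild type and 150 to 216 CPM in no-Cre. All 7 transgenic libraries were above wild type. It rose by 1.71 ± 0.31. The Notch ligands Dll3 and Dll1 rose by 1.59 and 1.33, Hes7, the clock repressor, by 1.3, Nrarp, a Notch feedback inhibitor, by 1.14 and Notch1 by 1.12. Hes1 fell by 0.52. Pcdh8, a protocadherin of the forming somite boundary, rose by 2.29, from 27.6 to 44.5 CPM in wild type to 157 to 211 CPM. Without wild-type replicate 2, 13 rose and 1 fell (median 1.05), and Hes7 gave 1.09 (adjusted p 0.0657). Here as in all bulk tissue, a larger share of cells of a type and more RNA per such cell cannot be told apart.

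In the somite and sclerotome list 3 of 14 rose and 4 fell, and the 50% called is close to the 49.3% of all genes. Of all genes 24.3% were higher and 25.0% lower, and the lists that follow are set beside these shares. Foxc2 stood at 112, 124, 134 and 141 CPM in the induced group, 24.3, 34.9 and 31.6 CPM in wild type and 138 to 172 CPM in no-Cre, all transgenic libraries being above wild type. It rose by 2.08, Tcf15, a bHLH factor of epithelial somites, by 1.15 and Foxc1 by 0.87. Meox2 fell by 2.46 and Mkx, a tendon factor, by 0.59. In the connective tissue list 8 of 14 fell and 1 rose (median -1.17, and -1.22 in no-Cre): Col1a1 fell by 2.52, Col1a2 by 1.94 and Col3a1 by 1.66, and Pdgfra rose by 0.48. In that list 8 fell and 2 rose without wild-type replicate 2. Over 40 collagen genes 12 rose and 18 fell. Of 9 genes of notochord and floor plate, 5 rose and 1 fell (median 0.76), with Foxa2 at 1.46, Shh at 1.05, Foxa1 at 0.85 and Nog, a BMP antagonist, at 0.56, and the ciliary factor Foxj1 at -1.55. Of 10 genes in the Shh response list 6 fell and 2 rose (median -0.36). In no-Cre against wild type 5 of them were lower and 0 higher (median -0.19). Among those that fell were Gas1, Hhip, Gli1 and Gli2, by 1.60, 1.11, 0.56 and 0.56. Without wild-type replicate 2 the notochord list gave 4 higher and 1 lower (median 0.50), with Foxa1 at 0.50, Shh at 0.83 (adjusted p 0.0728), Gli2 at -0.53 (adjusted p 0.0502) and Hhip at -0.73. Without wild-type replicate 3 it gave 6 higher (median 1.25), with Shh at 1.63, and without wild-type replicate 1 or induced replicate 3 it gave 3. Foxa1 lost its call without induced replicate 3 (adjusted p 0.0534) or wild-type replicate 1 (adjusted p 0.0555).

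Neural progenitor genes rose in 7 of 13 and fell in 4 (median 0.58), beside 24.3% and 25.0% of all genes. In no-Cre against wild type 7 were higher and 1 lower (median 0.46). Against no-Cre the median was -0.25, and 2 were lower, Sox3 by 0.92 and Pou3f3 by 1.10. Nes, an intermediate filament of progenitors, stood at 290 to 311 CPM in the induced group and 177 to 212 CPM in wild type, without overlap, and rose by 0.61. Msi1, an RNA-binding protein, rose by 0.62 and Hes5, a Notch target, by 2.11 from 0.278 to 0.365 CPM. Irx3 fell by 1.95. Sox2 gave 0.04 (adjusted p 0.823) and lay below no-Cre by 0.43 (adjusted p 0.07).

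**Figure D4:**
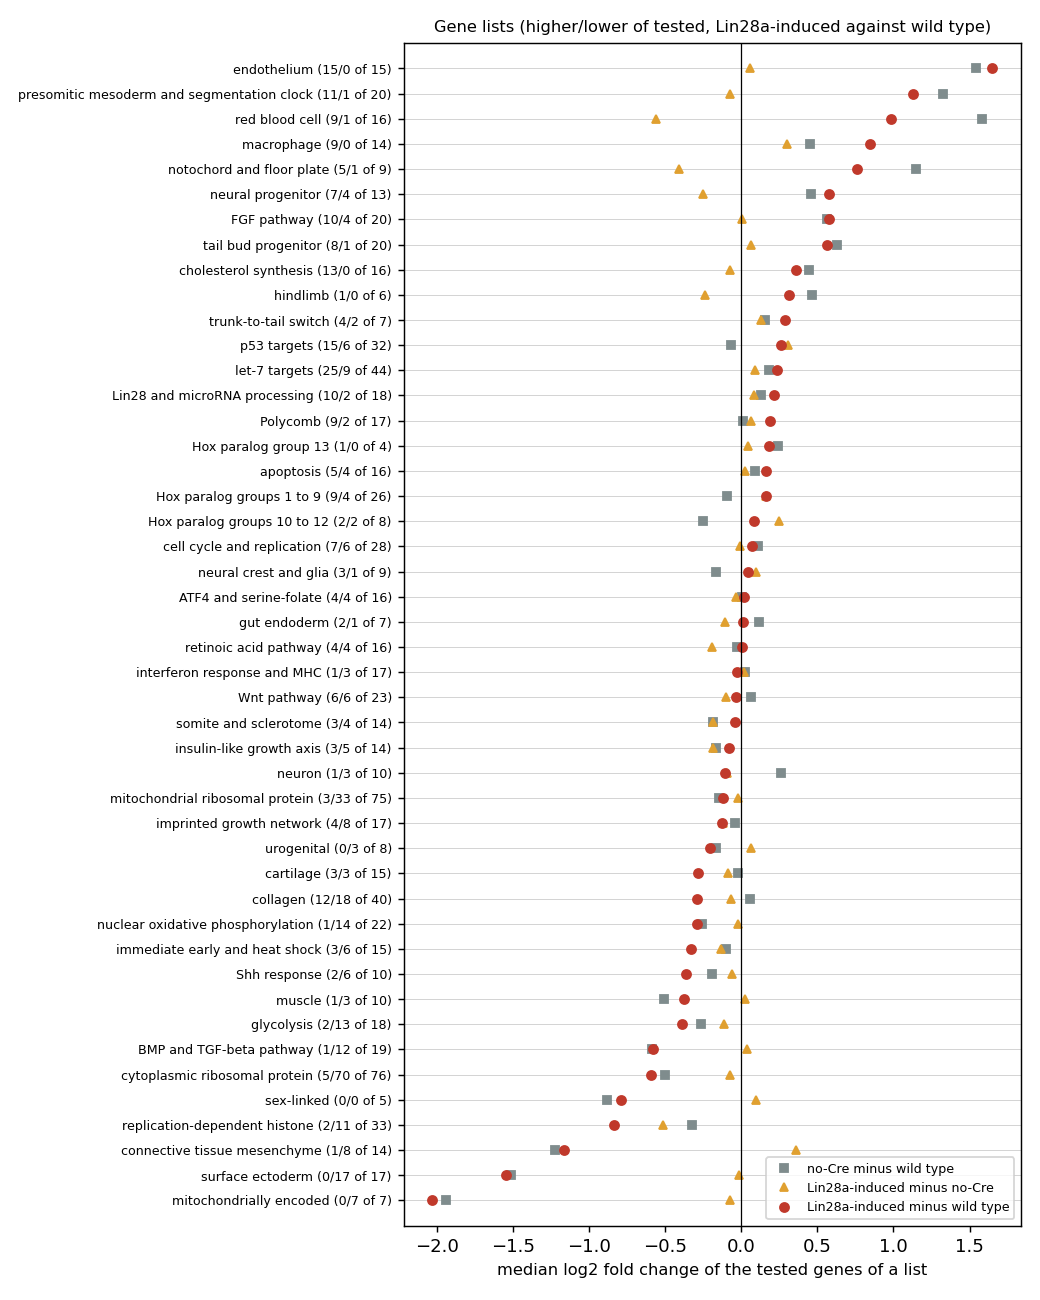
Median log2 fold change over the tested genes of each list (x axis), for induced minus wild type (circles), no-Cre minus wild type (squares) and induced minus no-Cre (triangles), with the numbers higher and lower of those tested in brackets. Circle and square lie close together for endothelium (1.65 and 1.54), surface ectoderm (-1.55 and -1.51) and the mitochondrially encoded genes (-2.03 and -1.94) and farther apart for red blood cells (0.98 and 1.58), replication-dependent histones (-0.84 and -0.32) and p53 targets (0.26 and -0.07); the comparisons share libraries.

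Surface ectoderm and endothelium changed as whole lists. Their members too were chosen with earlier results of these data known. All 17 surface ectoderm genes tested were lower (median -1.55; -1.51 in no-Cre against wild type; -0.02 in induced against no-Cre), where 25.0% of all genes were lower. Their summed level was 614 to 693 CPM in the induced group, 1748 to 2155 CPM in wild type and 639 to 699 CPM in no-Cre. Krt5, a basal keratin, stood at 31.4, 32.6, 31.9 and 41.6 CPM in the induced group against 169, 213 and 187 CPM in wild type, and fell by 2.46 ± 0.13 (adjusted p 1.83e-07). Dsp, desmoplakin, stood at 133 to 137 CPM against 379 to 420 CPM and fell by 1.58. Cdh1, E-cadherin, fell by 1.62, Trp63, the master factor of stratified epithelium, by 1.55, Epcam by 1.02 and Tfap2b, a factor of ectoderm and neural crest, by 2.66. The 17 calls held in every fit that left out a library.

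All 15 endothelial genes tested were higher (median 1.65; 1.54 in no-Cre against wild type; 0.06 in induced against no-Cre), where 24.3% of all genes were higher. The sum was 420 to 574 CPM in the induced group, 103 to 216 CPM in wild type and 440 to 495 CPM in no-Cre, with wild-type replicate 2 the lowest. Cdh5, VE-cadherin, stood at 78.2, 83.7, 100 and 110 CPM against 24.7, 13.4 and 34.7 CPM and rose by 1.95 ± 0.29. Kdr, the VEGF receptor, rose by 1.98, Plvap by 2.02, Sox18 by 2.06, Tek by 1.65, Pecam1 by 1.48 and Vwf, made by mature endothelium, by 3.41. Without wild-type replicate 2 all 15 were called and the median was 1.39. Macrophage genes rose in 9 of 14 and the rest did not pass (median 0.84, and 0.45 in no-Cre), with sums of 124 to 159 CPM against 50 to 99.6 CPM. Csf1r rose by 1.76, Cx3cr1 by 1.49 (2.29 without wild-type replicate 3) and C1qb by 1.34, and Mrc1 gave -0.32 (adjusted p 0.053), or -0.40 without induced replicate 4 and -0.39 without wild-type replicate 3 (adjusted p 0.03 and 0.0343).

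Red blood cell genes gave a mixed picture, where 24.3% of all genes were higher and 25.0% lower. Of 16 tested 9 rose and 1 fell (median 0.98, and 1.58 in no-Cre), and 8 rose and 3 fell without wild-type replicate 1. The summed level, 3781 to 6194 CPM in the induced group, lay within that of wild type, 2771 to 8121 CPM. Gata1, Klf1 and Rhag, of erythroid precursors, rose by 1.90, 2.51 and 2.38 from under 2 CPM. Alas2, of heme synthesis, gave -0.21 (adjusted p 0.714). Slc4a1 and Ank1, of the red cell membrane, rose by 1.78 and 2.60.

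The globins went different ways and are near-identical copies in part, so that reads may have been split among them. The embryonic genes gave 2.15 for Hbb-bh1, 1.38 for Hba-x (adjusted p 0.0347, lost without induced replicate 2, 4 or 5 or wild-type replicate 1 or 3, at adjusted p of 0.0531 to 0.0739) and -0.36 for Hbb-y (adjusted p 0.435). Hba-a2 stood at 132, 90, 150 and 129 CPM in the induced group, 234, 177 and 144 CPM in no-Cre and 0, 0.69 and 0.413 CPM in wild type, and its value was 8.41. Its copy Hba-a1, at 177 to 292 CPM in the induced group and 241 to 789 CPM in wild type, gave -1.09 (adjusted p 0.0509). Hbb-bs fell by 3.05, from 121 to 457 CPM to 28 to 50.2 CPM, and its neighbour Hbb-bt gave -0.71 (adjusted p 0.199). Without wild-type replicate 1, Hba-a1 gave -1.44 (adjusted p 0.0035) and Hbb-bt -1.09 (adjusted p 0.00432). The strain of each group is not given in the labels.

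**Figure D5:**
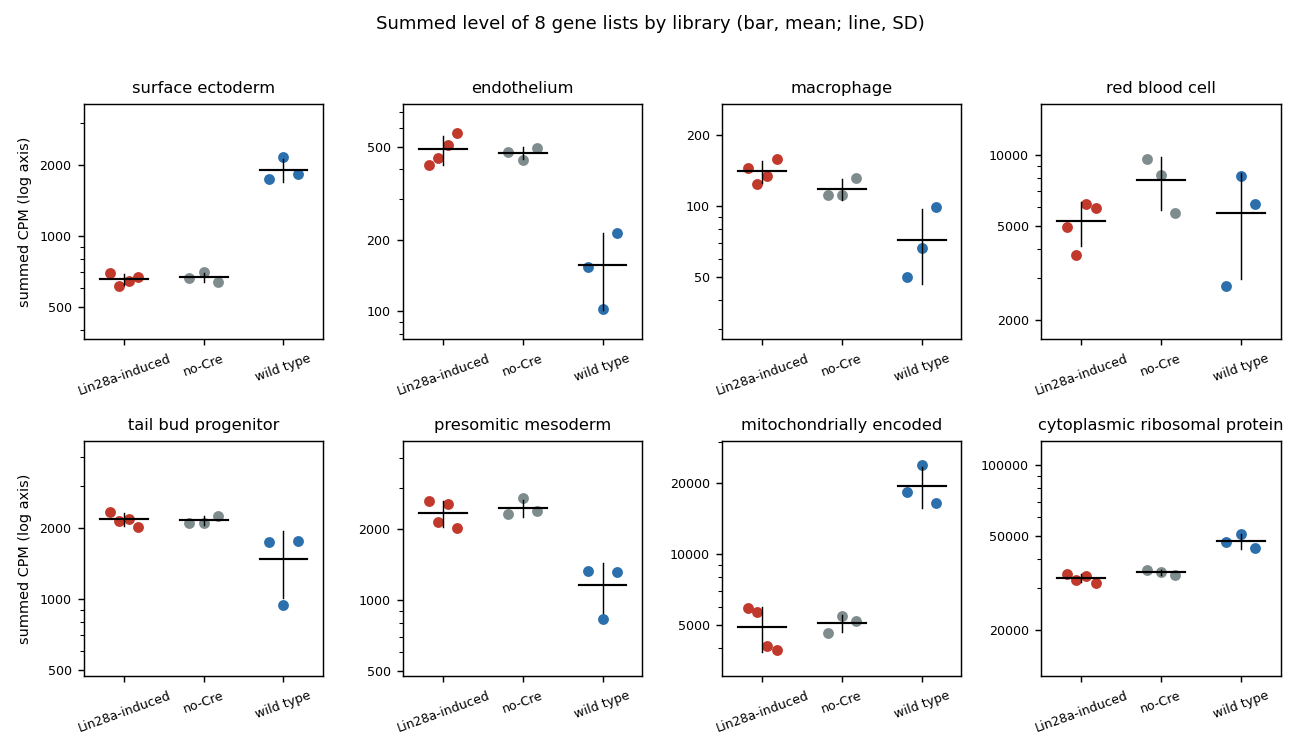
Summed CPM of 8 gene lists by library (log axis), with means as bars and SD as lines. For surface ectoderm, endothelium, mitochondrially encoded and ribosomal protein genes the 7 transgenic libraries form a cluster apart from wild type; wild-type replicate 2 is lowest among all libraries for the tail bud progenitor, presomitic mesoderm and endothelium lists.

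Signalling lists differed in direction. Of 20 FGF pathway genes 10 rose and 4 fell (median 0.58), beside 24.3% and 25.0% of all genes, and without wild-type replicate 2 these were 12 and 5 (median 0.38). Fgf18 stood at 43.1 to 54.5 CPM in the induced group and 11.5 to 15.9 CPM in wild type and rose by 1.79, and Fgfr1, the main mesodermal receptor, stood at 367 to 393 CPM against 153 to 231 CPM and rose by 0.91. Fgfr2, the epithelial receptor, fell by 1.0 and Fgfr3 by 0.76. Of 19 BMP and TGF-beta genes 12 fell and 1 rose (median -0.58): the BMP antagonist Grem1 fell by 3.10, the targets Msx2, Id3 and Bambi fell by 1.10, 0.60 and 0.46, and the ligand Tgfb1 rose by 1.34. Of 23 Wnt genes 6 rose and 6 fell, a share of 52.2% near the 49.3% of all genes, and without wild-type replicate 2 these were 7 and 10 (median -0.14). Wnt4 stood at 22.1 to 25.8 CPM in the induced group and 90.8 to 102 CPM in wild type and fell by 2.04, the feedback inhibitors Rnf43 and Notum fell by 0.85 and 0.81, Tcf7, a transcriptional effector, rose by 0.58, and Axin2, a general target, gave 0.23 (adjusted p 0.0895), or 0.35 (adjusted p 0.00902) without wild-type replicate 1. In the retinoic acid list, Stra6, a retinol uptake receptor, rose by 0.89, and Rarb, a receptor and target, fell by 1.55. Against no-Cre the medians were 0.01 for the FGF, 0.03 for the BMP and TGF-beta and -0.10 for the Wnt list.

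Igf2, the main fetal growth ligand, whose mRNA is bound by Igf2bp1, was lower. It stood at 1249, 1238, 1254 and 1387 CPM in the induced group, 1808, 2252 and 2004 CPM in wild type and 1569, 1598 and 1588 CPM in no-Cre. The groups did not overlap and no-Cre lay between. It fell by 0.66 ± 0.07 against wild type and by 0.31 against no-Cre (adjusted p 0.0252). H19, the maternally expressed RNA next to it, fell by 0.90 and by 0.46 against no-Cre. Of 14 genes of the insulin-like axis 3 rose and 5 fell, 57.1% called beside 49.3% of all genes (24.3% higher and 25.0% lower). The binding proteins Igfbp2 and Igfbp5 fell by 1.37 and 1.28 and Igfbp3 rose by 0.77. Of 17 imprinted genes 4 rose and 8 fell, among them Cdkn1c, a growth inhibitor, by 0.79 and Peg3 by 0.56, while Plagl1, a regulator of imprinted genes, rose by 0.50. Leaving out a library gave 2 to 4 higher and 5 to 7 lower in this list, with 2 higher without induced replicate 3 or 5 and 5 lower without induced replicate 4.

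Genes of metabolism and protein synthesis fell more often than they rose, where 25.0% of all genes were lower and 24.3% higher. Of 13 listed mitochondrially encoded genes 7 were tested, and all 7 were lower (median -2.03). Among the untested ones, 5 had 0 counts in all 7 induced and wild-type libraries, and the cause was not tested. Mt-Nd1 stood at 1077, 887, 694 and 679 CPM in the induced group, 3688, 4713 and 3245 CPM in wild type and 761 to 873 CPM in no-Cre. The transgenic groups overlapped and were far below wild type. Of 76 cytoplasmic ribosomal protein genes 70 fell and 5 rose (median -0.59, and -0.50 in no-Cre; 3 rose without induced replicate 2, 3 or 4, no-Cre replicate 6 or 7 or wild-type replicate 1), with Rpl13a falling by 0.76 from 1656, 1780 and 1719 CPM to 938 to 1085 CPM. Rpl29 rose by 1.41, and it has near-identical copies in the genome, so that its value is uncertain. With an offset fitted on gene length the ribosomal median was -0.38, with 61 lower and 7 higher.

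Nuclear genes of oxidative phosphorylation fell in 14 of 22 and rose in 1 (median -0.29), and with the length offset 9 fell and 3 rose (median -0.04), so that this count depends on that choice. Over all genes 25.0% were lower and 24.3% higher, beside which this list and those of glycolysis and cholesterol synthesis are set. Glycolysis genes fell in 13 of 18 and rose in 2 (median -0.39): the glucose transporters Slc2a3 and Slc2a1 fell by 1.02 and 0.64, and Pgk1 by 0.76 against wild type and by 0.31 against no-Cre. Cholesterol synthesis genes rose in 13 of 16 and the rest did not pass (median 0.36, and 0.44 in no-Cre). Insig1, a sterol-regulated feedback gene, stood at 78.3 to 87.9 CPM in the induced group and 28.7 to 42.3 CPM in wild type and rose by 1.22, and Srebf2, a transcription factor of sterol synthesis, rose by 0.55. Of 33 replication-dependent histone genes 11 fell and 2 rose (median -0.84, -0.32 in no-Cre against wild type and -0.52 in induced against no-Cre), and the 39.4% called is below the 49.3% of all genes. With a filter of 1 CPM in 3 libraries 11 of them were tested, 5 fell and 2 rose and the median was -0.43, and with the length offset it was -0.49. Their mRNAs lack poly(A) tails, and their sum over the list was 46.1 to 51.5 CPM in the induced group, 58.1 to 75.5 CPM in wild type and 58.4 to 69.1 CPM in no-Cre. Of 28 cell cycle genes 7 rose and 6 fell, 46.4% called beside 49.3% of all genes, with Mki67 falling by 0.52, Ccne2 falling by 0.46 and Ccne1 rising by 0.52.

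Gene type, transcript length and base composition moved with the calls. Of 590 processed pseudogenes 157 fell and 13 rose, and of 344 lincRNAs 88 fell and 28 rose, against 25.0% lower and 26.9% higher of protein-coding genes. By transcript length, 10.1% of the fifth of genes with the shortest transcripts and 31.9% of the fifth with the longest were higher. By GC content, 17.0% of the fifth with the lowest and 32.2% of the fifth with the highest were higher. Offsets fitted on these gave 4062 higher and 3881 lower for length, and 4285 and 3833 for GC.

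The largest falls held genes with near-identical copies, whose values are uncertain: Tpm3-rs7 fell by 4.17 and Eif3j2 by 4.14. Among genes without such a name, Grik3, a kainate receptor subunit, stood at 0.251 to 0.594 CPM in the induced group and 9.82 to 17.6 CPM in wild type and fell by 4.86. Pianp fell by 4.14, the serine protease Prss22 by 3.43, Gjb2, an epithelial gap junction protein, by 3.35 and the axon guidance receptor Unc5c by 2.87. Of the rises, Adra2b, an adrenergic receptor, gave 4.22, and Myo7a, an unconventional myosin, stood at 26.6, 30.4, 32.8 and 32.7 CPM in the induced group, 3.06, 2.76 and 4.68 CPM in wild type and 28.5 to 31.2 CPM in no-Cre and rose by 3.14. Rab6b rose by 3.06, and Myocd, a coactivator of smooth muscle genes, by 3.02. For these genes no-Cre against wild type gave like values, from -5.53 for Grik3 to 4.99 for Adra2b, and none differed between induced and no-Cre past the threshold.

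Some genes had counts in some groups and 0 in others. Trim12a, one of a family of near-identical genes, had 57 to 81 counts in the induced libraries, 55 to 59 in no-Cre and 0 in every wild-type library, at least 50-fold higher over a floor of 3 counts over the group. Ccnb1ip1, a ubiquitin ligase of meiotic crossover, had 0 counts in the induced libraries, 2, 0 and 0 in no-Cre and 13, 49 and 20 in wild type, at least 51.9-fold lower. Vmn2r22, a vomeronasal receptor, had 0 counts in all 7 transgenic libraries and 4, 80 and 12 in wild type. Tpbpa, a placental gene, also had 0 counts in those 7 and 0, 85 and 3 in wild type, so that its counts come from replicate 2 almost alone.

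A few genes moved against wild type and against no-Cre in opposite directions, 35 higher than wild type and lower than no-Cre and 8 the reverse. Olfm4, a secreted glycoprotein, stood at 5.36 to 6.48 CPM in the induced group, 4.13 to 4.69 CPM in wild type and 13 to 14.2 CPM in no-Cre, and rose by 0.40 against wild type while lying 1.21 below no-Cre on the log2 scale. Camk2n1, an inhibitor of CaM kinase, ranged from 32.1 to 38.6 CPM, 19.8 to 24.4 CPM and 56.7 to 65.7 CPM in the same order. Notch1, Foxc1 and Magi1 belong to the same 35. Gt(ROSA)26Sor, the transcript of a locus in common use for conditional alleles, stood at 10.1 to 13.4 CPM in the induced group, 27.6 to 33.6 CPM in wild type and 7.27 to 8.7 CPM in no-Cre, and fell by 1.46. The labels do not spell out whether the rtTA allele lies there.

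The calls lay on every autosome, in shares near that over all genes, while larger changes varied by region. On each autosome 44.9% to 54.2% of tested genes were called against wild type. Within 10 Mb of Lin28a the share was 55.3%, of Col1a1 50.6%, of Foxd1 45.3% and of Gt(ROSA)26Sor 42.5%, beside 49.3% over all genes. Changes of at least 2-fold among the called genes made up 4.42% (upward) and 7.06% (downward) of all genes. By windows of 10 Mb, those with few tested genes left out, their share ran from 0% to 35.3%. The highest were chr4:60000001-70000000 (35.3% of 34 genes) and chr8:30000001-40000000 (25.7% of 35). The cause of this variation was not tested. All 11 tested genes of the mitochondrial genome, a wider set than the mitochondrially encoded list above, were lower.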

How the data were processed

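Raw read counts per gene symbol were deposited by the authors for 10 libraries of microdissected tail bud. Per the labels' protocols, total RNA was made into strand-specific libraries, and per the submitters' processing notes reads were processed with STAR 2.3.1z4, featureCounts and DESeq2 on mm10. Neither source names the strand or multi-mapping setting. Counts of 38720 symbols were filtered with filterByExpr in edgeR 4.0.16 (R 4.3.3), scaled by TMM and fitted by robust quasi-likelihood over all 10 libraries with 1 coefficient per group, with Benjamini-Hochberg adjustment over the 16340 genes tested and a threshold of 0.05. CPM values use TMM-scaled totals, and the SE is the absolute log2 fold change over the square root of F.

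The genes named are Lin28a, Lin28b and Foxd1, the largest changes of non-overlapping groups (12 each way with a group mean of at least 5 CPM, and 10 each way with a mean of at least 50 CPM), 5 genes per list by smallest p, whole lists for the let-7, p53, microRNA, tail bud and caudal Hox sets, the 10 clearest each way against both controls, and genes at 0 in a group. Members and the 46 gene lists were chosen with earlier results of these data known. Genes outside that rule (the other globins, Gt(ROSA)26Sor, Olfm4, Camk2n1, Magi1, Axin2, Mrc1, Cx3cr1, Kdr, Plvap, Cdh1, Trp63, Epcam, Slc4a1, Alas2, Dll1, Dll3 and Hes7) were named after their values were seen. Some genes that the rule names are not reported here. Coordinates and 3′ UTRs come from GENCODE M21, which matched 35654 symbols, with 1765 more through an older symbol. Alternatives were other scaling, filters, DESeq2 1.42.0, a sex covariate, GC and length offsets and leaving out each library. On simulated counts the fit of induced against wild type, run on 16092 genes, found 50 of 59 2-fold and 39 of 68 1.5-fold changes, with 11 false calls among 15896 unchanged genes. Few genes were changed there, whereas 49.3% were called in the data, so that the adjusted threshold was stricter and the rates are not those of the real comparison. The simulation also cannot show calls that come from other differences between the groups.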

Additional observations from a re-analysis of the deposited data

Results flagged for a closer look

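In 398 groups of 4 induced libraries tested, each for 1 gene that the naming rule covers, the highest or lowest library stood apart from the other 3 in 20, where chance alone flags about 1 in 20 groups. Replicate 5 was the library apart in 11 of them, replicate 3 in 4, replicate 2 in 3 and replicate 4 in 2. In replicate 5, Xist stood at 734 CPM and Uty, Ddx3y and Kdm5d at 0 CPM, as in a female library among males. The same library was the highest of the 4 for Krt5 at 41.6 CPM, Cdc25a at 175.6 CPM, Nefl at 3.74 CPM, Gas1 at 82.2 CPM and Igf2 at 1387 CPM, and the lowest for Aurkb at 132 CPM and Hist2h2bb at 0.0508 CPM. In replicate 3 the values apart were those of Ago4 at 11.4 CPM, Rrm2 at 449.8 CPM, Aen at 75.1 CPM and Afp at 19.8 CPM. In replicate 2 they were those of Ago2 at 401 CPM, Igfbp2 at 344 CPM and Cth at 30.8 CPM, and in replicate 4 those of Gdf6 at 3.10 CPM and Pitx1 at 2.19 CPM. Afp, a gene of yolk sac and liver, was at 0.0627 to 0.178 CPM in the other induced libraries and at 23.8 CPM in no-Cre replicate 6 and 41.9 CPM in wild-type replicate 2. For Krt5, Igfbp2, Igf2 and Gas1 the library apart was the induced library nearest to wild type, and all of them stayed below every wild-type library.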

How the results depend on the processing

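Against wild type, the counts of 3969 higher and 4081 lower genes stayed within 1.5 times under every alternative for scaling, filters, spread, GC, length, sex and DESeq2 and without any library (3490 to 4111 higher, 3547 to 4100 lower), and fell to 1583 and 2328 with an added limit of 0.5 on the absolute log2 fold change. Against no-Cre, the fit of only the groups compared gave 912 higher and 879 lower, DESeq2 477 and 454, the sex covariate 191 and 112, and the effect-size limit 57 and 57. Leaving out a library gave 73 to 776 higher and 31 to 706 lower. Genes past both controls numbered 590 higher and 354 lower with only the groups compared, 355 and 215 with DESeq2, 52 lower with the sex covariate, 32 and 21 with the effect-size limit, and 69 to 557 and 14 to 329 without a library. No-Cre against wild type gave 1438 and 2060 with the effect-size limit and 2741 to 3680 higher and 2798 to 3639 lower without a library. The cause of these moves was not tested.

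Of 333 called named genes, 305 kept the call in all 10 fits without a library and 315 in all other alternatives but the effect-size limit and the replicate block. Ifitm2 reversed with the length offset, from -0.18 to 0.20 (adjusted p 0.0889). For the replicate block, only numbers 2 and 3 are shared by the groups, and same-numbered libraries did not deviate together (correlations of -0.03 and -0.08), so that the samples share only a number. The block left 1804 genes higher and 2027 lower, and 73 named genes lost their call in it, with fewer libraries and degrees of freedom.

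At this depth genes under about 1 CPM carry few counts. The self-test, in which few genes were changed, found 23 of 69 simulated 1.3-fold changes. Without strand and multi-mapping settings, antisense pairs and near-identical copies remain uncertain.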
